A study of Homo sapiens with 6 samples.

Results

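The genes examined here encode the machinery that releases synaptic and dense-core vesicles. They are a named list of 51 of the 20037 protein-coding genes on chromosomes 1 to 22, X and Y of the RefSeq table, and all 51 were found in it by symbol. MYT1L is a DNA-binding protein of neurons with zinc fingers. Its occupancy was mapped over these genes by CUT&RUN, in which an antibody directs a nuclease to a chromatin protein and the DNA cut free is sequenced. The cells were wild type, came from the human embryonic stem cell line H1 and were taken at day 30. The series' design text calls them cortical interneurons made from the stem cells, whereas the sample labels name the stem cells themselves. An antibody to MYT1L was used for 4 libraries. The other 2 used IgG, which has no target on chromatin and shows the background. The groups share genotype, line and time and differ in the antibody, and all rest on this 1 line. Peak lists hold no expression values, so the identity of the cells could not be checked against markers. Nothing in the labels says whether the libraries came from separate cultures, so the spread between them may be technical.

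Neurotransmitter leaves a nerve terminal when a vesicle fuses with the plasma membrane. SNARE proteins on both membranes zip together, priming factors and active-zone scaffolds hold the vesicle at the release site, and synaptotagmins sense the calcium that triggers fusion. Synapsins, SV2 proteins and Rab3 GTPases belong to the vesicle, and dynamin and synaptojanin retrieve its membrane afterwards. Neuropeptides are released from larger dense-core vesicles by related machinery. MYT1L is known in neurons as a repressor of genes of other lineages. Proteins of the MYT1 family recognise the core sequence AAGTT.

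A gene's window was its body and 10 kb on either side. Peaks of the MYT1L libraries that overlapped by at least 1 bp were joined into a region. A region was reproducible when at least 3 of the 4 MYT1L libraries had a peak in it. A gene was called when its window held a reproducible region that no IgG peak overlapped. The strength of a peak is given as the authors' fold enrichment at its summit, a ratio of signal to local background, and a region's value is the mean ± SD over the libraries that have it. A region lay at a start when it came within 1 kb of the gene start. The table of RefSeq promoters gave a start for 39 of the 51 genes. For the other 12 (RIMS2, SYT7, SNAP25, SYT13, SYN3, PTPRN2, CPLX1, RIMS4, DOC2A, DOC2B, SYNGR3 and SYT12) the strand was not known and either end was used.

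MYT1L replicates 1 to 4 had 27926, 12310, 18966 and 30086 peaks, and the IgG replicates 976 and 998. Depth was estimated as the genome-wide background pileup, the number of sequenced fragments expected over a position. It was 1.18, 0.421, 1.05 and 0.895 in MYT1L replicates 1 to 4 and 0.329 and 0.190 in IgG replicates 1 and 2. Both controls were thus shallower than each MYT1L library, of which replicate 2 was the shallowest.

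The promoters of 5 members are shown because the counts below turn on them. PCLO, VAMP1 and SYNJ1 had the strongest start regions among called members, CPLX2 was called at its start and holds an AAGTT core upstream of the called region, and SYN1 was not called and holds TTCAGCACC. TTCAGCACC is part of the silencer element to which REST, a repressor of neuronal genes, binds. Each sequence is the 250 bases before the start from RefSeq, GRCh38.p14, read 5′ to 3′ on the gene's strand. They lie at chr7:83162885-83163134 (PCLO, minus strand), chr12:6470678-6470927 (VAMP1, minus), chr21:32728395-32728644 (SYNJ1, minus), chr5:175796283-175796532 (CPLX2, plus) and chrX:47619858-47620107 (SYN1, minus). Capitals mark a motif, and AACTT is AAGTT on the other strand.
PCLO: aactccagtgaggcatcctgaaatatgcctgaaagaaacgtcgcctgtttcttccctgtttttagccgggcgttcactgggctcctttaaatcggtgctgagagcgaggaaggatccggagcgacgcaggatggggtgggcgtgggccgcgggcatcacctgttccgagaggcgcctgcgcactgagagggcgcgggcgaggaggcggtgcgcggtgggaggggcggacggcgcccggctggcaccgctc
VAMP1: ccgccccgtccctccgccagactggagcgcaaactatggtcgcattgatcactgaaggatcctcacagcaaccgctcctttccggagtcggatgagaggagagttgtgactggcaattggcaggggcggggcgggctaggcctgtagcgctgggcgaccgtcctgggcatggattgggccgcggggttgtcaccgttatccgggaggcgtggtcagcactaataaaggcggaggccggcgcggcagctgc
SYNJ1: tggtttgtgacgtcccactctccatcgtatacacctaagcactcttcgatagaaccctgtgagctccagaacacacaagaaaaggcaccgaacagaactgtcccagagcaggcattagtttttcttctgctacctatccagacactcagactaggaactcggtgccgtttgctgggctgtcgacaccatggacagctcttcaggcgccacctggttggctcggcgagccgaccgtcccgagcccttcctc
CPLX2: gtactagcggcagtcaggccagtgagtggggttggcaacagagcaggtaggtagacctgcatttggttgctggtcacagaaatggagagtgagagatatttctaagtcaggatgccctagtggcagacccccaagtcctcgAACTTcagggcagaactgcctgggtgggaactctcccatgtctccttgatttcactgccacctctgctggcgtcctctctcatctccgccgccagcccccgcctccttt
SYN1: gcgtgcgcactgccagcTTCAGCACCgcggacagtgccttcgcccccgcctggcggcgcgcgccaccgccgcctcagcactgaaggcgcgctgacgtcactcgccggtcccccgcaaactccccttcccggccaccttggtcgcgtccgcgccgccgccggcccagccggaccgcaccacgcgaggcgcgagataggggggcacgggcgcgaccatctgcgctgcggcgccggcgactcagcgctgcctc

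In CPLX2 the AAGTT core lies 109 bases before the start, outside the region, which begins closer to the start, and in SYN1 the TTCAGCACC match lies 233 bases before it. The PCLO, VAMP1 and SYN1 stretches lie wholly inside regions described below, and those of SYNJ1 and CPLX2 partly. PCLO, VAMP1 and SYNJ1 have none of either motif in the bases shown. The VAMP1 promoter holds AAGTT just past its start, outside the stretch printed.

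The members' windows together covered 10.5 Mb. They held 152, 59, 81 and 157 peaks of MYT1L replicates 1 to 4. The IgG replicates had 2 and 3 peaks there, so the groups did not overlap. As a share of a library's own peaks this was 0.544%, 0.479%, 0.427% and 0.522% for MYT1L and 0.205% and 0.301% for IgG. The 95% Wilson intervals reached from 0.344% to 0.638% over the MYT1L libraries and from 0.0562% to 0.880% over the IgG libraries. They overlapped and did not separate the shares at this depth. PTPRN2 alone held 49, 23, 21 and 38 of the MYT1L peaks and 2 in each IgG library. Without it the shares were 0.369%, 0.292%, 0.316% and 0.396% for MYT1L. For IgG they were 0% and 0.100%, from 0 and 1 peaks. With all members, the ratio of mean peak numbers was 44.9 (exact 95% counting interval 19.1 to 139), and the log2 ratio of geometric means was 5.40. The counting interval pools the peaks of each group as if independent and leaves out the spread between libraries. With the 976 top peaks of each of the 6 libraries, the members held 13 MYT1L peaks and 5 IgG peaks, a log2 ratio of 0.18 (ratio of means 1.30, interval 0.435 to 4.66).

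At least 1 MYT1L library had a peak in 50 of the 51 windows (98.0%), beside 87.3% of all protein-coding genes. Replicates 1 to 4 had a peak in 45, 31, 38 and 49 windows. The same counts over all genes were 72.8%, 47.1%, 61.6% and 81%. CPLX4, a complexin known from retinal ribbon synapses, was the member without any peak. An IgG peak lay in 2 windows, those of PTPRN2 and NSF (3.92%, against 4.71% of all genes). PTPRN2 was the 1 window with a peak of IgG replicate 1 (1.85% of all genes), and IgG replicate 2 had peaks in both (3.26% of all genes).

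By the call, 30 of the 51 genes had MYT1L at a reproducible region free of IgG peaks (58.8%, 95% Wilson interval 45.2% to 71.2%). The background was 51.7% of all protein-coding genes, inside that interval. A region in all 4 libraries was present for 17 members (33.3%) and for 27.7% of all genes. Longer genes have more room for peaks, so the same count was made by length of the gene body. Under 50 kb 12 of 22 members were called (54.5%) against 45.5% of all genes of that length, from 50 to 200 kb 7 of 15 (46.7%) against 63.8%, and over 200 kb 11 of 14 (78.6%) against 70.8%. The members had a median of 3 regions in their windows and all genes 2. At gene starts 17 of 39 members were called (43.6%) and 40.4% of all genes with a start. Of the 12 members without a listed start 2 were called at an end, SYT13 and RIMS2 (16.7% against 31.7%). Starts and ends together gave 19 of 51 members (37.3%) and 38.5% of all genes. With 2 of 3 libraries required, that count was 33 without MYT1L replicate 2 (64.7%, against 50.9% of all genes) and 35 without MYT1L replicate 3 (68.6%, against 47.9%).

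**Figure D1:**
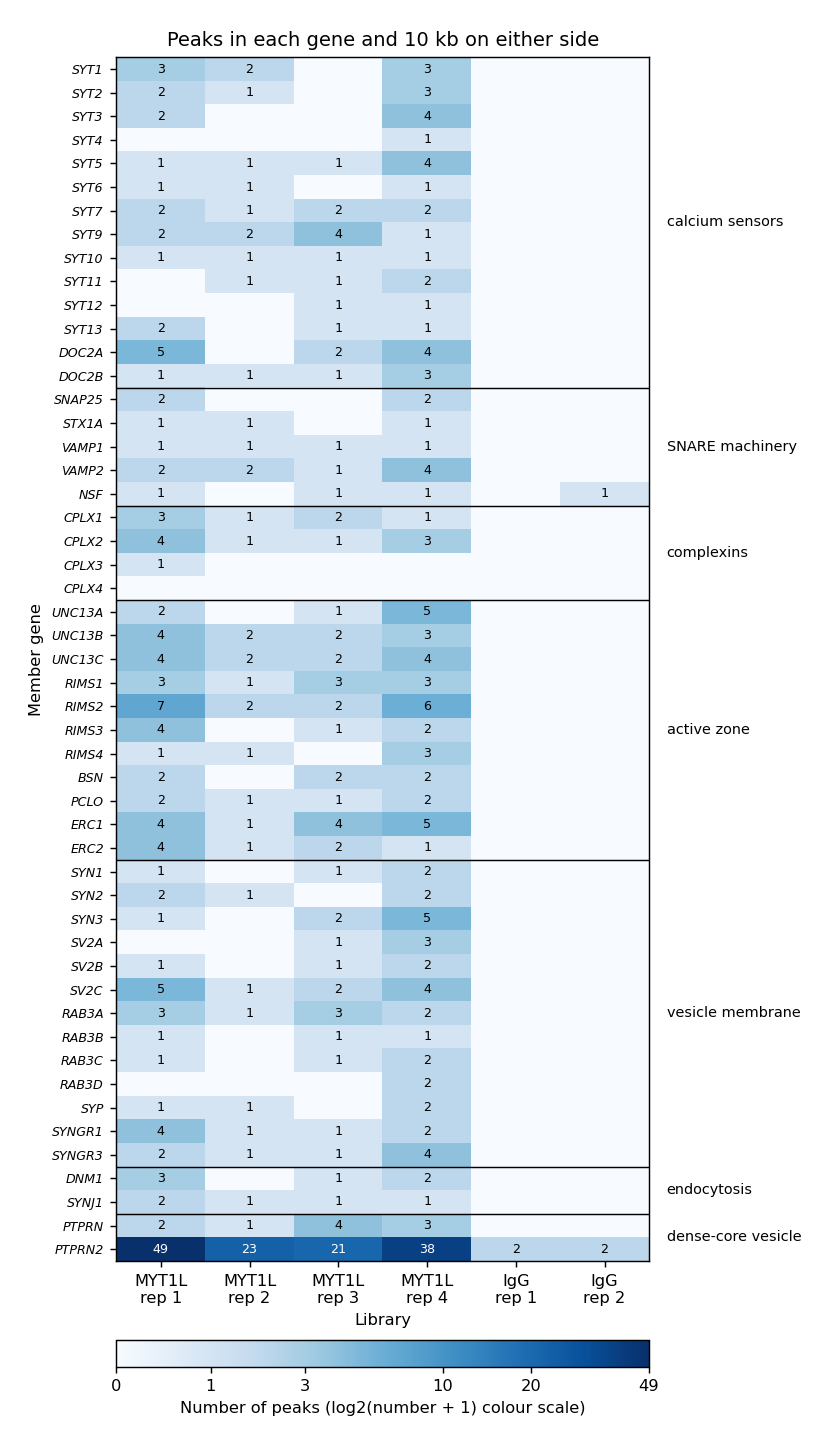
Number of peaks in the window of each of the 51 genes (rows, grouped by role) in each of the 4 MYT1L and 2 IgG libraries (columns), with the number printed in each cell above 0. PTPRN2 has 49, 23, 21 and 38 MYT1L peaks and 2 in each IgG library, and NSF is the only other gene with an IgG peak.

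The calcium sensors had the most members, 14, of which 10 were called, beside 51.7% of all genes. At the start itself 5 of the 9 with a listed start were called, beside 40.4% of all genes with a start. SYT1 is the synaptotagmin that triggers fast, synchronous release in most forebrain neurons. Its start region (chromosome 12, 78864423 to 78865457) had folds of 4.45, 6.08 and 9.10 in replicates 1, 2 and 4 and no peak in replicate 3. The mean was 6.54 ± 2.36 (SD, n = 3), and the fold in replicate 4 was the highest. Pileups at the 3 summits were 9, 9 and 34 fragments. SYT9, another fast sensor, had folds of 5.04, 6.48, 6.57 and 7.69 in replicates 1 to 4 at its start (6.44 ± 1.09, SD, n = 4). SYT10, which in olfactory bulb neurons controls secretion of a growth factor, had 5.49, 5.63, 5.85 and 6.44 at its start (5.85 ± 0.418, SD, n = 4), the narrowest spread of the 10 start regions found in all 4 libraries. SYT5 (4.79, 4.92 and 7.83 in replicates 1, 2 and 4) and SYT11 (5.15, 5.72 and 6.41 in replicates 2 to 4) were called at the start from 3 libraries each. SYT11 lacks calcium binding in its first C2 domain. The SYT11 region (chromosome 1, 155859340 to 155860536) also lies at the start of GON4L, so it cannot be given to either gene.

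Of the other 5 called sensors, SYT2 had no called region at its start. SYT7, SYT13, DOC2A and DOC2B have no listed start, so a region there could not be judged. SYT2, the fast sensor of the hindbrain and of many inhibitory terminals, had a region inside the gene with folds of 5.57, 4.33 and 5.83 in replicates 1, 2 and 4. It lay 85581 bp into the gene from its start. SYT7, a sensor of slow and asynchronous release, had 5.06, 5.75 and 4.31 in replicates 1, 3 and 4 inside the gene. Its other region, outside the gene by 4219 bp, lies at the start of LRRC10B. SYT13, which does not bind calcium, had 5.04, 6.04 and 5.06 in replicates 1, 3 and 4 at an end. DOC2A and DOC2B are soluble calcium-binding proteins tied to spontaneous and asynchronous release. The DOC2A region inside the gene had 3.70, 5.49 and 6.58 in replicates 1, 3 and 4. The DOC2B region had 5.31, 6.63, 7.27 and 4.51 in replicates 1 to 4 and lay 7945 bp outside the gene. In DOC2B replicate 4 was the lowest of the 4, whereas at SYT1 it was the highest. SYT3, SYT4, SYT6 and SYT12 were not called. SYT4, a calcium-insensitive member found on dense-core vesicles, had a single peak at its start, with a fold of 9.50 in replicate 4.

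Among the 5 genes of the SNARE machinery, VAMP1 and VAMP2 were called and SNAP25, STX1A and NSF were not. VAMP1 and VAMP2 are the synaptobrevins, the SNAREs of the vesicle. The VAMP1 start region (chromosome 12, 6470379 to 6471257) had folds of 5.34, 7.21, 10.2 and 9.84 in replicates 1 to 4 (8.15 ± 2.30, SD, n = 4), with pileups of 18, 11, 28 and 43 fragments. It also reaches the body of TAPBPL. The VAMP2 start region (chromosome 17, 8162525 to 8163299) had 5.82, 6.63, 4.71 and 6.74 (5.98 ± 0.940, SD, n = 4). A further VAMP2 region lay outside the gene by 2400 bp, with folds of 3.72, 7.31 and 4.23 in replicates 1, 2 and 4. SNAP25 and STX1A are the SNAREs of the plasma membrane. The SNAP25 region at an end of the gene (chromosome 20, 10218644 to 10219132) had folds of 4.44 and 5.20 in replicates 1 and 4 only. The STX1A start region had 4.67 and 5.98 in replicates 2 and 4 only. Each thus missed the call by 1 library.

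NSF is the ATPase that takes spent SNARE complexes apart. Its start region (chromosome 17, 46590394 to 46591159) had folds of 6.45, 8.84 and 11.7 in replicates 1, 3 and 4 (8.99 ± 2.61, SD, n = 3), the highest mean of any start region among the members. IgG replicate 2 had a peak inside it with a fold of 6.25 and a pileup of 7 fragments, and the MYT1L pileups were 14, 18 and 31. The gene was therefore not called, and it would be if that IgG library were left out. The region also reaches the body of LRRC37A2. NSF has a partial copy in the same duplicated part of chromosome 17, so reads could belong to either copy.

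Complexins bind the assembled SNARE complex and hold it ready for the calcium signal. CPLX2 was called at its start (chromosome 5, 175796479 to 175797801), with folds of 5.23, 6.84, 7.29 and 6.96 in replicates 1 to 4 (6.58 ± 0.923, SD, n = 4). CPLX1 had 5.33, 4.82, 4.75 and 6.68 in replicates 1 to 4 at a region outside the gene by 2528 bp. That region is at the start of a neighbouring gene, LOC124900163. CPLX3, like CPLX4 a complexin of the retina, had 1 peak, with a fold of 3.57 in replicate 1.

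The active zone had 8 of 11 genes called, and their group had a median gene length of 409 kb. Of all genes 51.7% were called, and 70.8% of those over 200 kb. At the start itself 6 of the 9 with a listed start were called, beside 40.4% of all genes with a start. PCLO encodes piccolo, a giant scaffold of the active zone. Its start region (chromosome 7, 83162254 to 83163150) had folds of 8.54, 5.63, 8.29 and 10.8 in replicates 1 to 4 (8.31 ± 2.11, SD, n = 4), the highest mean of the called start regions. The pileups were 18, 7, 16 and 35 fragments, so replicate 2, the shallowest library, had the fewest. BSN, which encodes the partner scaffold bassoon, had 4.73, 5.07 and 6.65 in replicates 1, 3 and 4 (5.48 ± 1.03, SD, n = 3), the lowest mean. Other start regions thus lay between those of these 2 scaffolds. ERC1 and ERC2 encode the ELKS proteins that bind both scaffolds. ERC1 had 7.63, 6.29, 5.46 and 9.17 in replicates 1 to 4 (7.14 ± 1.62, SD, n = 4) at a region that also reaches the body of RAD52. ERC2 had 5.15, 5.36 and 8.82 in replicates 1, 3 and 4 (6.45 ± 2.06, SD, n = 3). The SDs of ERC1 and ERC2 exceeded the difference between their means.

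UNC13 proteins prime vesicles and RIM proteins tether them to calcium channels. UNC13B had folds of 6.45, 5.56, 6.55 and 10.1 in replicates 1 to 4 at its start (7.16 ± 2.00, SD, n = 4). A further region inside UNC13B, 21765 bp from the start, had 6.36, 5.54, 8.57 and 5.90. Replicate 4 was the highest at the start and not at the inner region. RIMS1 had 3 regions, all reproducible. Its start region had 6.35, 5.58, 6.36 and 8.44 in replicates 1 to 4 (6.68 ± 1.23, SD, n = 4). The RIMS1 region with the highest mean lay 296319 bp into the gene, with 6.41, 7.31 and 8.95 in replicates 1, 3 and 4 (7.56 ± 1.29, SD, n = 3). The 2 means differed by less than the SD of either. RIMS2 had 5.001, 5.28, 4.55 and 4.38 in replicates 1 to 4 at an end (4.80 ± 0.412, SD, n = 4). The RIMS3 region (chromosome 1, 40691484 to 40692496) had 7.92, 4.99 and 9.36 in replicates 1, 3 and 4. It covers the upstream end of RIMS3 (40692066) and lies at the start of NFYC, so it cannot be given to either gene. The listed RIMS3 start (40665682) lies inside the gene body, away from the region. UNC13A, UNC13C and RIMS4 were not called. UNC13A, the main priming factor of glutamatergic terminals, had 4.16 and 4.30 in replicates 1 and 4 at its start, with 6 regions in the window and none reproducible.

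**Figure D2:**
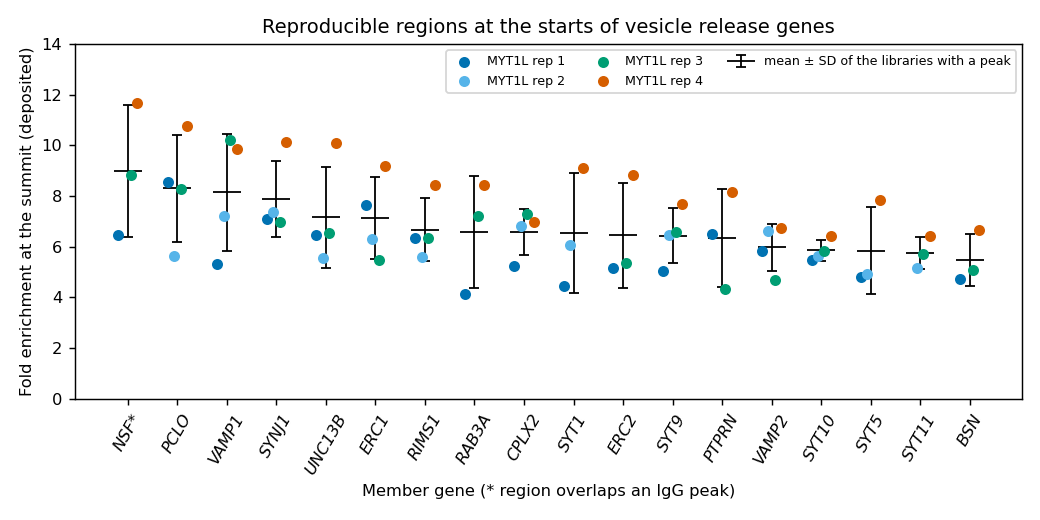
Deposited fold at the summit (y axis, a ratio) for the reproducible start region of each gene (x axis), 1 point per MYT1L library that has a peak, with the mean ± SD as a bar. Called regions run from a mean of 5.48 at BSN to 8.31 at PCLO, and NSF, whose region holds an IgG peak, has an asterisk.

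The vesicle membrane group had the smallest called share of the role groups, 5 of 13, and 1 of 11 at a listed start. Of all genes 51.7% were called, 45.5% of those under 50 kb, and 40.4% at a listed start. The 1 member of the group called at its start was RAB3A, the main Rab3 GTPase of synaptic vesicles. Its start region (chromosome 19, 18203357 to 18204392) had folds of 4.13, 7.21 and 8.42 in replicates 1, 3 and 4 (6.59 ± 2.21, SD, n = 3). A flanking RAB3A region is at the start of MPV17L2. SV2B and SV2C are glycoproteins of the vesicle, and SV2C is a receptor for botulinum toxin A. SV2B had 4.58, 7.30 and 5.81 in replicates 1, 3 and 4, inside the gene. SV2C had 8.02, 6.56 and 4.92 in replicates 1, 2 and 4, also inside the gene. At SV2C replicate 4 was the lowest and at RAB3A the highest. Synaptogyrins are small membrane proteins of the vesicle. SYNGR1 had 4.38, 5.43 and 8.45 in replicates 1, 2 and 4, outside the gene by 2834 bp. SYNGR3 had 5.06, 5.46, 4.59 and 6.70 in replicates 1 to 4 at the start of GFER. None of the 3 synapsin genes, whose products bind vesicles into a reserve pool, was called. At the SYN1 start (chromosome X, 47619538 to 47620216) the folds were 4.39 and 5.50 in replicates 3 and 4 only. SYP, which encodes the vesicle marker synaptophysin, had 4.65 and 6.58 in replicates 2 and 4 at its start. SV2A, RAB3B, RAB3C, RAB3D, SYN2 and SYN3 were not called either. The group's small share depends on the 3 libraries required. SYN1, SYN2, SYN3, SV2A, RAB3B, RAB3C and SYP each had a region in 2 libraries, and 69.6% of all genes had one in at least 2.

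Of the 2 endocytosis genes SYNJ1 was called and DNM1 was not. Synaptojanin, the product of SYNJ1, strips phosphoinositides from retrieved vesicles so that the clathrin coat can come off. The SYNJ1 start region (chromosome 21, 32727417 to 32728508) had folds of 7.10, 7.36, 6.99 and 10.1 in replicates 1 to 4 (7.90 ± 1.51, SD, n = 4). Replicate 4 stood above the other 3, which lay close together. DNM1, which encodes the dynamin that cuts vesicles from the membrane in neurons, had 5.14 and 5.76 in replicates 1 and 4 at its start.

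Both dense-core vesicle genes were called, beside 51.7% of all genes. PTPRN is under 50 kb, where 45.5% of all genes were called, and PTPRN2 over 200 kb, where 70.8% were. PTPRN and PTPRN2 encode transmembrane proteins of dense-core vesicles, IA-2 and phogrin, which resemble receptor phosphatases. PTPRN had a start region (chromosome 2, 219308361 to 219309434) with folds of 6.50, 4.32 and 8.17 in replicates 1, 3 and 4 (6.33 ± 1.93, SD, n = 3). A further PTPRN region (219294584 to 219295193) had 4.32, 3.77, 4.67 and 6.22 in replicates 1 to 4. It lies 384 bp from MIR153-1, a microRNA gene (chromosome 2, 219294111 to 219294200) inside PTPRN. The mature sequence from RefSeq is given with its seed, bases 2 to 8, in capitals because it identifies the microRNA beside the region.
hsa-miR-153-3p: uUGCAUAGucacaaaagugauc
MIR153-2, the related gene inside PTPRN2, lies 10.7 kb from the nearest reproducible region. The microRNAs were looked at after the regions' values were known.

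PTPRN2 (chromosome 7, 157539056 to 158587823) is 1049 kb long, the longest member, and its window held 90 regions, the most of all 20037 genes. The next were DLGAP2 with 66 and TTC34 with 40. That count includes regions found in 1 library. Of reproducible regions PTPRN2 had 10, fewer than DLGAP2 with 16 and TTC34 with 19. Free of IgG peaks were 8 in PTPRN2, 16 in DLGAP2 and 13 in TTC34. In the PTPRN2 window MYT1L replicates 1 to 4 had 49, 23, 21 and 38 peaks and each IgG library had 2. The groups did not overlap, and the means were 32.8 ± 13.2 (SD, n = 4) and 2 (n = 2, both libraries equal). The difference was 30.8 peaks (two-sided exact permutation test over 15 splits, p = 0.133, which is the lowest value that 4 against 2 libraries can give). The test cannot tell a property of PTPRN2 from list length, since every MYT1L list was far longer than both IgG lists. PTPRN2 was also chosen with earlier results of these data known, so no conclusion is drawn from the p. With the 976 top peaks of each library the means were 3 and 2 peaks. Per length PTPRN2 had 84.2 regions per Mb, against a median of 7.94 (interquartile range 4.98 to 12.3) over the 315 genes of at least 500 kb, and ranked 1 among them. Among genes of every length 2749 had as many per Mb or more, with a median length of 7.24 kb.

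Most of the PTPRN2 regions had little support. Of the 90, 65 were found in 1 library, 15 in 2, 5 in 3 and 5 in all 4, so 10 were reproducible (11.1%). Among the 183 regions of the other members 21.3% were reproducible, and 25.1% among all 49028 regions. The median fold of the PTPRN2 regions was 4.51, of the other members' 4.95 and of all regions 4.99. They were spread along the gene, with 5 to 13 in each of 10 equal stretches of the window. The strongest PTPRN2 region (158595146 to 158595406) lay outside the gene by 7.32 kb. Its folds were 27.9, 23.3, 14.1 and 24.9 in replicates 1 to 4 (22.5 ± 5.90, SD, n = 4), with pileups of 178, 58, 52 and 129 fragments. No other reproducible region of a member reached a mean of 10. Of the 10 reproducible regions 2 overlapped IgG peaks. At 158360052 to 158361079 the folds were 9.16, 9.63, 9.27 and 11.03 in MYT1L replicates 1 to 4 and 6.41 in IgG replicate 2. At 158146975 to 158148955 they were 8.67, 6.76, 5.04 and 7.19, and both IgG libraries had peaks, with folds between 4.05 and 7.14. Their MYT1L means were 9.78 and 6.92, both above the median of the PTPRN2 regions. Whether copy number or mappability of this part of chromosome 7 moved with the number of regions was not tested.

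**Figure D3:**
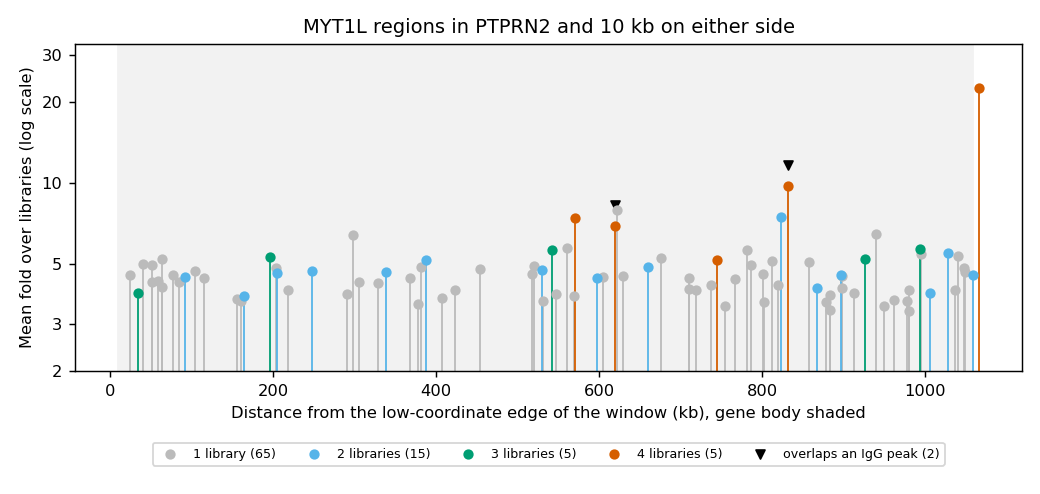
The 90 MYT1L regions across the window of PTPRN2: distance along the window in kb (x axis) against the mean deposited fold (y axis, a ratio on a log scale), marked by the number of libraries and by overlap with an IgG peak. The region with a mean of 22.5 stands apart at the far end, and the 2 regions that overlap IgG peaks lie within the gene.

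Other long members had far fewer regions. UNC13C (796 kb) had 10 and none was reproducible, SYN3 (551 kb) had 7 and none, and RIMS1 (517 kb) had 3 and all were. RIMS2 had 10 with 2 reproducible, ERC1 8 with 2, SV2C 8 with 1, ERC2 6 with 1 and SYT1 4 with 1. UNC13C had 12.3 regions per Mb and RIMS1 5.59, so the gene with more regions per length had fewer reproducible ones.

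**Figure D4:**
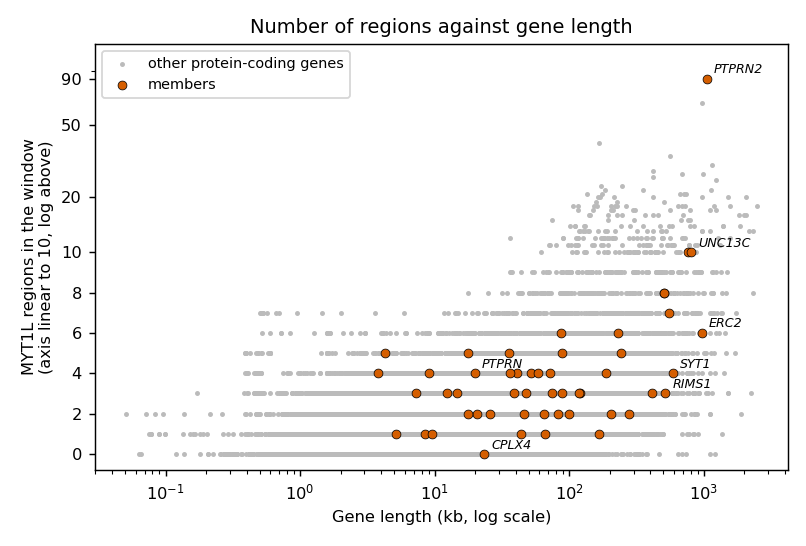
Number of MYT1L regions in the window (y axis, linear to 10 and logarithmic above) against gene length in kb (x axis, logarithmic) for the members and all other protein-coding genes. PTPRN2 is at 90 regions, and the other members lie between 0 and 10.

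The members that missed the call mostly missed it by 1 library. Of the 21 not called, 16 had a region in 2 MYT1L libraries, SYT4, CPLX3 and RAB3D in 1, CPLX4 in none, and NSF overlapped an IgG peak. A best support of exactly 2 libraries occurred for 31.4% of members and 17.9% of all genes. With at least 2 libraries 46 of 51 members had a region free of IgG peaks (90.2%), beside 69.6% of all genes. By length these shares were 81.8% of members and 63.9% of all genes under 50 kb. From 50 to 200 kb they were 93.3% and 80.5%, and over 200 kb 100% and 87.7%. At starts the counts were 31 of 39 (79.5%) and 54.6%. By number of supporting libraries from 0 to 4, the 39 starts divided into 4, 4, 14, 7 and 10. The 15842 starts of all genes divided into 5186, 2013, 2248, 3019 and 3376. The 2-library starts were 35.9% of the members' and 14.2% of all.

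**Figure D5:**
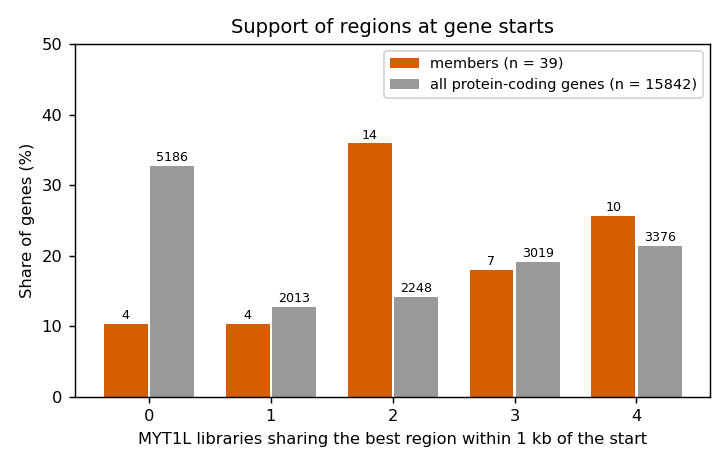
Share of gene starts in percent (y axis) by the number of MYT1L libraries with a peak in the best IgG-free region at the start (x axis, 0 to 4), for 39 members and 15842 genes. The members' bar is highest at 2 libraries, with 14 genes (35.9%), where all genes have 14.2%.

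The 16 members with 2-library support had 20 such regions, and 13 of the 16 had one at the start or an end. In order of replicates 1 to 4, peaks lay in 10, 4, 7 and 19 of the 20. Of all 8171 such regions in the genome the corresponding shares were 66.7%, 17.9%, 37.5% and 77.9%. The members' regions had a median fold of 5.39 (4.23 to 8.70), beside 5.16 for all. The strongest, 8.70, was at the start of RAB3C, another Rab3 GTPase, with 9.26 and 8.13 in replicates 3 and 4. RAB3C had a second region nearby, with 7.04 and 4.57 in replicates 1 and 4, so all but replicate 2 had a peak near that start. Replicate 4 had the longest list and replicate 2 the shortest.

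Start regions of members had a median fold of 6.54 (5.48 to 8.31, 17 regions) and their other regions 5.33 (3.91 to 22.5, 29 regions). Over all genes the medians were 6.67 for 5691 regions at starts and 5.83 for 5400 elsewhere. The definitions differ: over all genes the listed start of any gene counted, and for members only the member's own. Member regions at the starts of LRRC10B, LOC124900163, NFYC, MPV17L2 and GFER are thus among the 29, and values elsewhere are not strictly comparable. Of the members' regions found in all 4 libraries, replicate 4 had the highest fold at 8 of 10 at starts (80.0%) and 4 of 10 elsewhere (40.0%), or 4 of 7 elsewhere without PTPRN2. Over all genes these shares were 88.2% and 54.7%. Each set by its own definition had the same order: higher folds at starts and a larger share of starts with replicate 4 highest. Of the 46 regions behind the calls, 17 were at a listed start and 2 at an end of a gene without one. A gene body held 19, and 8 lay in a flank. At 16 of the 17 the region covered the start itself. For 11 called members no region lay at a listed start or, without one, an end. RIMS3 is among them because only its listed start was examined, and its region, counted in the body, covers the upstream end of the gene.

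Members' promoters were rich in CpG dinucleotides, with a median of 28 in the 300 bases around the start, beside 22 over all 15842 promoters. Called promoters had a median of 29 both among members and among all genes. With at least 20 CpG, 26 of 29 member starts had support from 2 or more libraries (89.7%) and 14 from 3 or more (48.3%). All 8867 such promoters had 77.1% and 59.3%. Below 20 CpG the members had 5 and 3 of 10, and all 6975 promoters 25.9% and 16.3%. At CpG-rich promoters the members' share was thus above that of all genes with 2 or more libraries and below it with 3 or more. The pentamer AAGTT, searched on both strands of the 300 bases, was in 5 of 39 member promoters (12.8%) and 29.3% of all. It was in 2 of the 17 called members, VAMP1 and CPLX2, and 3 of the 22 not called. Over all genes it was in 22.5% of called promoters and 33.9% of the rest. TTCAGCACC, which shares no bases with AAGTT in these promoters, was in 2 of 39, SYN1 and UNC13A, neither of which was called, and in 63 of all promoters (0.398%). A match describes the letters and is no evidence of binding.

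The IgG libraries were shallower, so an IgG peak could be missed at a region that a MYT1L library shows. The 49 reproducible member regions were reduced binomially to the depth of each control, and the peaks that would still pass its lowest deposited −log10 p were summed. At the depth of IgG replicate 1 the 4 MYT1L libraries were expected to keep 13.8 to 31.9 peaks, and IgG replicate 1 had a peak in 1 of these regions. At the depth of IgG replicate 2 they were expected to keep 6.999 to 18.6, and it had peaks in 3. Without PTPRN2 the expected numbers were 8.65 to 25.8 against 0, and 3.75 to 14.7 against 1. For PTPRN2 alone they were 3.70 to 7.79 against 1, and 2.44 to 5.58 against 2. Only the background pileup was matched in this reduction, and the regions were chosen for having MYT1L peaks, which by itself lowers the IgG counts beside them. The numbers are a description and no test.

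A list of 90 other vesicle genes served as the rest of the pathway, and 53 were called (58.9%), beside 58.8% of the members. At starts or, without one, ends, 46 of the 90 were called (51.1%), beside 19 of the 51 members (37.3%) and 38.5% of all genes. At listed starts alone it was 40 of 76 (52.6%) and 17 of 39 members (43.6%). By role, 23 of 37 genes of fusion and docking were called, 7 of 19 of the vesicle membrane and its filling, 4 of 14 of dense-core vesicles and 19 of 20 of endocytosis. Endocytosis genes called at the start included CLTC, the clathrin heavy chain, PICALM, which gathers clathrin at the membrane, and AMPH, which bends it. SYNJ2, the relative of SYNJ1, was the one not called. Of the dense-core genes CADPS and CADPS2, which prime these vesicles, CHGB, a granin cargo, and PCSK2, a prohormone convertase, were called. SCG2, another granin, had no MYT1L region. For the vesicle membrane the called share was below the 51.7% of all genes in both lists, 5 of 13 members and 7 of 19 others. That difference was not tested, and the comparison does not match gene length. The 13 members had a median length of 48.0 kb, and of all genes under 50 kb 45.5% were called. An IgG peak lay in the windows of 5 of the 90.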

How the data were processed

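Peak lists of 6 CUT&RUN libraries were used, 4 made for MYT1L and 2 for IgG. Groups and replicate numbers follow the sample titles, although peak names inside the MYT1L lists carry numbers 1 higher. The submitters' processing notes name MACS2 and hg38. The aligner, the settings and the control used in calling are not given in the sources used here, and each list names 1 library. Each deposited peak has a fold enrichment (a ratio), a −log10 p, a −log10 q and a score, all made by the authors. This score is the whole-number part of 10 times the −log10 q for 99.99% of peaks or more.

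Coordinates are counted from 1. Genes, promoters and microRNAs came from RefSeq tables of GRCh38.p14, which share the coordinates of hg38. Exons and introns were not assigned, since the gene table gives none. Regions, windows, starts and calls were defined as stated with the results. Joining the peaks with bedtools 2.31.1 gave the same number of regions. Pileups were solved from the fold and p by the caller's formulas, and whole numbers met the deposited p within 0.0002 on the −log10 scale for at least 99.8% of peaks with a −log10 p up to 200. Depth is otherwise unknown. Solving of pileups, joining of regions and counting in gene windows were tested on simulated data. Intervals are 95% Wilson or exact intervals and cover counting error only. Python 3.11.15, pandas 2.3.3 and scipy 1.17.1 were used.

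The members, roles and lists were chosen with earlier results of these data known, so counts of members are set beside the same count over all genes and have no test. Each member with a reproducible region was named with the values of its strongest region, together with PTPRN2, SYT1, SNAP25, SYN1, VAMP2, STX1A and UNC13A whatever their values. Other members and regions given with values, and the endocytosis and dense-core genes of the longer list, were chosen after their values were seen. Alternatives changed the threshold on peaks, list length, library number, overlap, window, distance from the start, IgG overlap and the libraries used. One alternative, leaving out PTPRN2, was added after seeing the data.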

Additional observations from a re-analysis of the deposited data

Results flagged for a closer look

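In the group of 4 MYT1L libraries the SYNJ1 start region had 1 sample far from the others. Its folds were 7.10, 7.36, 6.99 and 10.1 in replicates 1 to 4, and the gap between replicate 4 and the next highest was 0.884 of the whole range, above Dixon's 95% critical value for 4 samples. It was the 1 value beyond the limit among 28 tested, and about 1 in 20 groups passes it by chance. Replicate 4 also had the highest fold at 8 of the 10 member start regions found in all 4 libraries and at 88.2% of such regions over all genes.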

How the results depend on the processing

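The number of called members, 30, moved with the threshold and the libraries required. With peaks of −log10 q 5 or more it was 17 (16 of them among the 30, NSF gained). It was 19 with the 12310 top peaks of each MYT1L library, 46 with at least 2 libraries and 17 with all 4. The same shares of all genes were 33.4%, 36.5%, 69.6% and 27.7%. Members called at a start or, without one, an end numbered 19 (38.5% of all genes), and under the same settings 12, 11, 37 and 11 (24.6%, 27.5%, 52.6% and 20% of all genes). Members were thus above all genes with 2 libraries (72.5%) and below them with equal lists (21.6%). Leaving out 1 library gave 29 (53.2% of all genes) to 43 (67.5%) called members and 16 (38.2%) to 35 (47.9%) called at a start or end. The latter numbered 33 without MYT1L replicate 2 and 35 without MYT1L replicate 3, beside 50.9% and 47.9% of all genes, where 2 of the other 3 libraries were required. Members with an IgG peak, 2, were 1 with the stricter threshold, 5 with 50 kb on either side, 1 without PTPRN2 and 1 to 2 when leaving out 1 IgG library.

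The log2 ratio of member peaks, 5.40, was 0.18 with the 976 top peaks of each library and 5.11 to 5.69 when leaving out 1 library. It had no value at the stricter threshold, where IgG replicate 1 had no member peak. The PTPRN2 difference of 30.8 peaks was 15.8 at the stricter threshold, 1 with equal lists (exact permutation p = 0.533) and 25.3 to 34.7 when leaving out 1 library. Titles share replicate numbers 1 and 2 between antibodies, and nothing says that they pair libraries. With the replicate block, pairs 1 and 2, the log2 ratio was 5.27 and the PTPRN2 difference 34 (exact permutation p = 0.500). That p is the lowest value that 2 pairs can give, so no conclusion is drawn from it. Of the 10 strongest named regions 8 stayed when ranked by −log10 q. The cause of these changes was not tested.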
